A study of Mus musculus with 6 samples.

Results

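The 10 genes analysed here carry the insulin signal to glucose uptake, and they were compared in the muscle of mice with and without *Tarsl2*, which encodes a threonyl-tRNA synthetase-like protein. They were chosen by name, by taking the rows of the count table whose gene symbol was *Insr*, *Irs1*, *Irs2*, *Pik3r1*, *Akt1*, *Akt2*, *Tbc1d1*, *Tbc1d4*, *Slc2a4* or *Txnip*. Each symbol matched 1 row, so that the 10 genes were 10 of 53084 rows in the table. Muscle RNA came from 3 *Tarsl2*+/+ mice, numbered 583, 584 and 595, and from 3 *Tarsl2*-/- mice, numbered 588, 589 and 591, with 1 sequencing library per mouse. All were male C57BL/6 mice, 6 weeks old, kept on standard chow. The knockout allele lacks a fragment with exon 3 of *Tarsl2*, cut out with CRISPR/Cas9 in zygotes, so that the deletion is carried by every cell of the body and not by muscle alone. The records do not say which muscle was taken or whether the mice had been fasted, and no insulin treatment is described for the sequenced mice. The paper also ran glucose and insulin tolerance tests on 6-week-old mice of both genotypes. It does not say whether the sequenced mice were among them.

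Insulin binds the insulin receptor, which phosphorylates the adaptor proteins IRS1 and IRS2. These recruit phosphoinositide 3-kinase, whose lipid product activates the AKT kinases. AKT in turn phosphorylates the Rab GTPase-activating proteins TBC1D1 and TBC1D4 and so releases vesicles with the glucose transporter GLUT4 to the muscle surface, whereas the arrestin TXNIP limits glucose uptake. Much of this control acts on the proteins, by phosphorylation and by movement in the cell, and the values here are RNA levels only.

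The libraries held between 16176591 and 20123767 counts, and 14775 genes had enough counts to be tested. Levels are given as CPM (counts scaled to a common library size after TMM, the trimmed mean of M-values), and differences as the log2 fold change of *Tarsl2*-/- over *Tarsl2*+/+ from edgeR's quasi-likelihood test, with p-values adjusted by Benjamini-Hochberg over all tested genes and called at an adjusted p under 0.05. Reads on *Tarsl2* itself numbered 456, 605 and 464 in the wild-type libraries and 40, 30 and 37 in the knockout libraries, a log2 fold change of -3.82, as the labels have it. Summed markers of skeletal muscle lay between 49804 and 52873 CPM in *Tarsl2*+/+ mice and between 53797 and 62906 CPM in *Tarsl2*-/- mice, and 10 retinal genes, checked because the extraction record names retina, had at most 7 counts in any library. One fast-fibre marker, *Tnnc2*, had at most 4 counts, although the other fast-fibre markers were abundant. In bulk tissue, fewer cells of a type and less RNA per cell cannot be told apart.

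*Irs2* was the one gene of the 10 that was called by edgeR, and its level was higher by a log2 fold change of 1.00 in *Tarsl2*-/- muscle. The sequence in front of its start site is therefore shown together with that of its paralog *Irs1*, which did not pass the test. Both are single-transcript genes on the minus strand with 2 exons each. The *Irs2* exons lie at chr8:11004470-11008458 and chr8:10984681-10987014, and those of *Irs1* at chr1:82286777-82291416 and chr1:82233101-82237604 (GENCODE vM21, GRCm38). The 250 bases before the RefSeq start (GRCm38.p6) are printed 5′ to 3′ on the strand of the gene, for *Irs2* from chr8:11008930-11009179 and for *Irs1* from chr1:82291440-82291689, and capitals mark the letters CACGTG, the palindromic E-box read by many basic helix-loop-helix factors.
Irs2: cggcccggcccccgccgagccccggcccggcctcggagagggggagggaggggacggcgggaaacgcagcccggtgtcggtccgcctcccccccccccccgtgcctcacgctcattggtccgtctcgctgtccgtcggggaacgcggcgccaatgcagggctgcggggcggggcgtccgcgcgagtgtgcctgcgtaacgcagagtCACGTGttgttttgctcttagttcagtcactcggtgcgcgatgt
Irs1: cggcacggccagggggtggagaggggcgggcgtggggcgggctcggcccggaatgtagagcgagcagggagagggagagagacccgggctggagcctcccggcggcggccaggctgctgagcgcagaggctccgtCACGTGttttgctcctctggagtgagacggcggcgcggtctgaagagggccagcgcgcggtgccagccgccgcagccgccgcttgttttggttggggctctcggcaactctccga
The E-box began 44 bases before the start of *Irs2* and 115 bases before that of *Irs1*. RefSeq and GENCODE place the start of *Irs2* 471 bases apart and that of *Irs1* 23 bases apart, so that the *Irs2* stretch depends on the annotation used. Windows of 300 bases, from 250 before to 50 after the start, were present for 8 of the 10 genes, and CACGTG was found in 2 of these 8, *Irs1* and *Irs2*. Of all 27025 genes with RefSeq windows of this length, 8.09% held it in at least 1 window. The forkhead letters GTAAACA, searched on both strands, were found in 1 window each of *Akt1* and *Txnip*, 161 and 121 bases before the start, and in at least 1 window of 4.05% of all genes. They were in the window of neither *Irs1* nor *Irs2*. These matches describe letters only, and any part of them in the levels of *Irs1* or *Irs2* was not tested.

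The receptor and its adaptors come first. *Irs2* (ENSMUSG00000038894, chr8:10984681-11008458, minus strand), the adaptor whose transcription is known to respond to fasting and feeding in several tissues, was measured at 6.66, 5.55 and 4.06 CPM in *Tarsl2*+/+ mice 583, 584 and 595 and at 12.3, 11.2 and 9.05 CPM in *Tarsl2*-/- mice 588, 589 and 591. The lowest knockout value lay above the highest wild-type value. These levels rested on 77 to 114 counts per *Tarsl2*+/+ library and 179 to 221 counts per *Tarsl2*-/- library, the smallest counts among the 10 genes.

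The mean rose from 5.42 ± 1.31 CPM (SD, n = 3) to 10.8 ± 1.64 CPM (SD, n = 3). The log2 fold change was 1.00 (standard error 0.19), a 1.998-fold rise with a 95% interval from 1.503-fold to 2.66-fold and an adjusted p of 0.0211 by edgeR. *Irs2* ranked 152 among 14775 tested genes by p. The exact two-sided permutation test over the 6 mice gave p = 0.1, the smallest that 3 mice against 3 allow. The call was lost when any 1 of *Tarsl2*+/+ mouse 595 or *Tarsl2*-/- mice 588 and 589 was left out, with log2 fold changes of 0.83, 0.90 and 0.98 and adjusted p of 0.0707, 0.0713 and 0.0672. It held without mouse 583, 584 or 591.

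Thus 1 of the 10 genes was called higher and 0 lower in *Tarsl2*-/- muscle by edgeR. Of all tested genes, 2.23% were called, 0.873% as higher and 1.35% as lower. At an unadjusted p under 0.05 there were 2 of the 10, *Irs2* and *Akt2*, beside 19.5% of all tested genes, a share near that of the 10. The 3 values of one genotype all lay above those of the other for 3 of the 10, *Irs2*, *Akt2* and *Tbc1d4*, and for 24.4% of all tested genes. The median log2 fold change of the 10 genes was 0.13, with 7 above 0 and 3 below, and that of all tested genes was -0.00075, with 49.8% above 0. The plot of CPM by mouse shows these values for each gene.

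**Figure D1:**
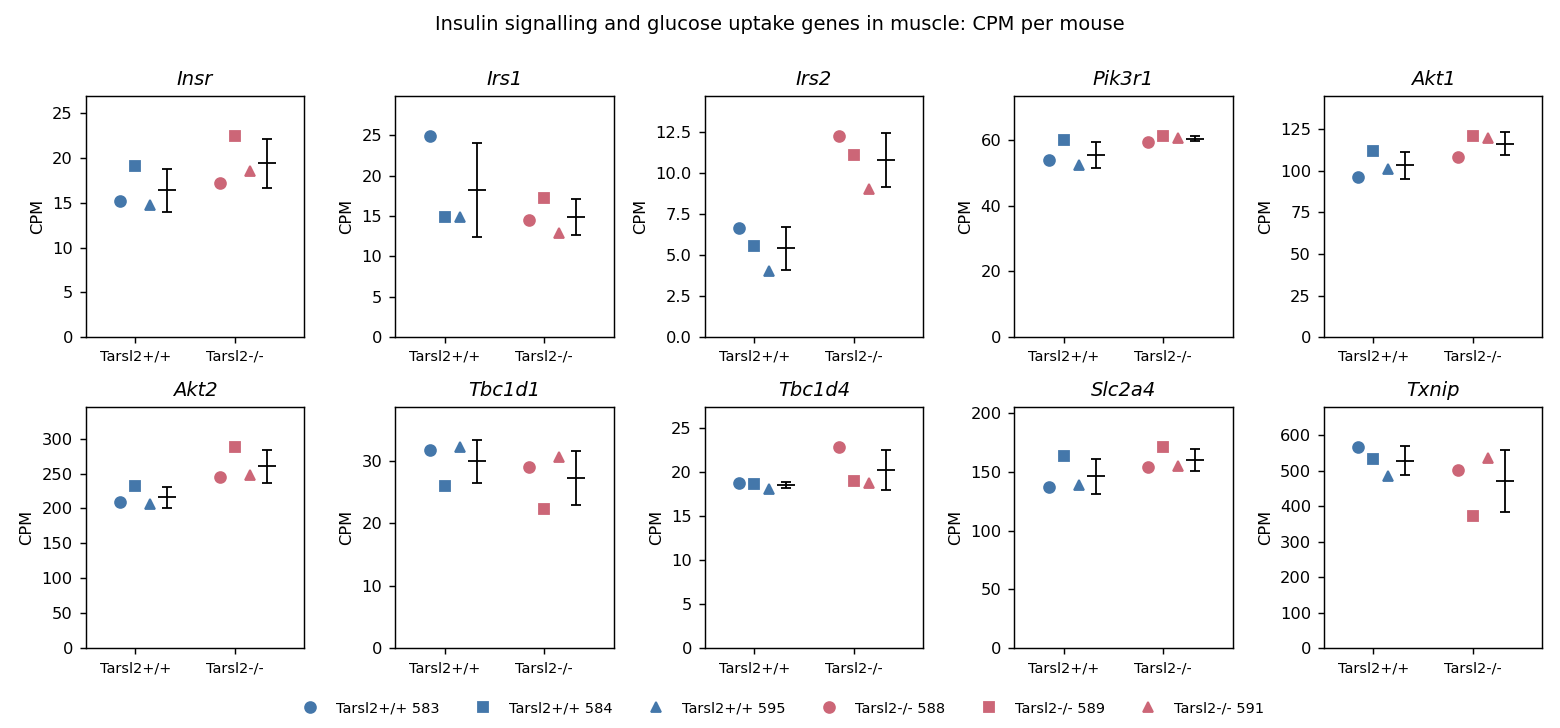
CPM (vertical axes, from 0) of the 10 genes in each mouse, with *Tarsl2*+/+ in blue and *Tarsl2*-/- in red, 1 symbol per mouse and black bars for the mean and SD (n = 3). The 3 *Irs2* values of *Tarsl2*-/- muscle, 9.05 to 12.3 CPM, all lie above the wild-type values of 4.06 to 6.66 CPM, and most other genes overlap.

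*Irs1* (ENSMUSG00000055980, chr1:82233101-82291416, minus strand), the adaptor most closely tied to glucose uptake in muscle, was at 24.9, 14.9 and 14.9 CPM in *Tarsl2*+/+ mice and at 14.5, 17.3 and 12.8 CPM in *Tarsl2*-/- mice. Wild-type mouse 583 stood well above the other 5 mice, which overlapped. Its log2 fold change was -0.29 (standard error 0.19, 95% interval from -0.72 to 0.13, adjusted p = 0.439), and without mouse 583 it was -0.0036. The lower mean in *Tarsl2*-/- muscle therefore rested on that mouse.

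*Insr* (ENSMUSG00000005534, chr8:3122061-3279617, minus strand), the insulin receptor, was at 15.3, 19.2 and 14.8 CPM in *Tarsl2*+/+ mice and at 17.2, 22.5 and 18.5 CPM in *Tarsl2*-/- mice. The groups overlapped, because wild-type mouse 584 lay above knockout mice 588 and 591. *Insr* had a log2 fold change of 0.24 (standard error 0.13, 95% interval from -0.05 to 0.54, adjusted p = 0.351).

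The opposite signs of *Irs1* and *Irs2* were also examined within each mouse. Scaled to the exonic length of the gene, CPM per kb of *Irs2* was 0.387, 0.539 and 0.395 of that of *Irs1* in the 3 *Tarsl2*+/+ mice, and 1.22, 0.935 and 1.02 of it in the 3 *Tarsl2*-/- mice. *Irs1* was thus the more abundant adaptor RNA in every wild-type mouse, whereas the levels were close to equal in the knockout mice. The mean log2 ratio was -1.20 ± 0.27 (SD, n = 3) against 0.07 ± 0.20 (SD, n = 3), and the difference of 1.27 had p = 0.1 by the exact two-sided permutation test, or 0.3 adjusted over the 3 ratios tested, which this design could not bring under 0.05. Without any 1 mouse, mouse 583 included, the difference was between 1.17 and 1.43.

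**Figure D2:**
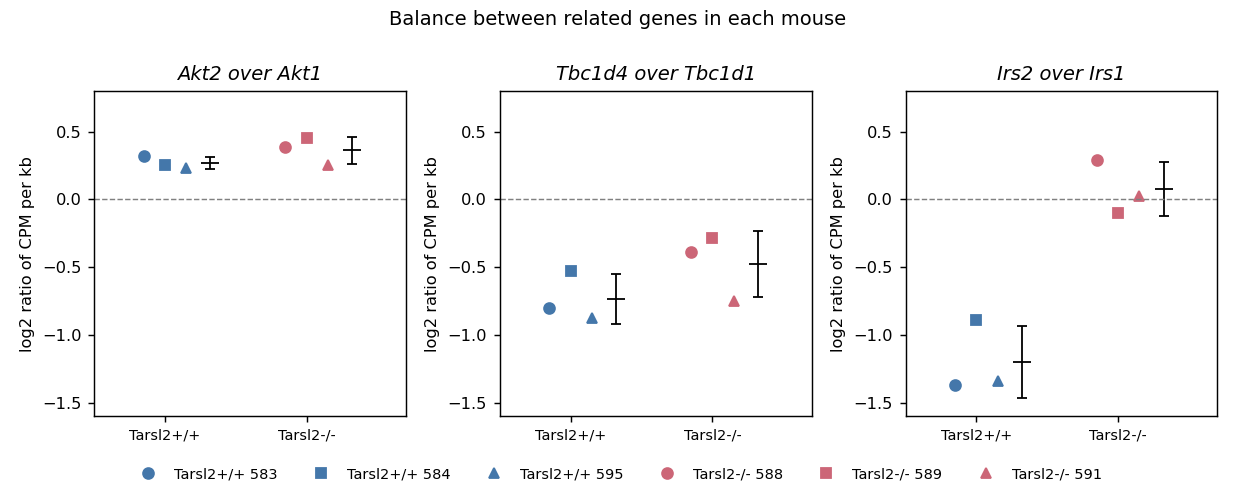
Log2 ratio of CPM per kb (vertical axes) for *Akt2* over *Akt1*, *Tbc1d4* over *Tbc1d1* and *Irs2* over *Irs1* in each mouse, with *Tarsl2*+/+ in blue, *Tarsl2*-/- in red, black bars for the mean and SD (n = 3) and a dashed line at equal levels. The *Irs2* over *Irs1* ratios of the genotypes do not overlap, with means of -1.20 and 0.07, whereas the other ratios overlap.

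The PI3K and AKT step followed. *Pik3r1* (ENSMUSG00000041417, chr13:101680563-101768217, minus strand), the regulatory subunit that docks phosphoinositide 3-kinase on the adaptors, was at 53.8, 59.9 and 52.4 CPM in *Tarsl2*+/+ mice and at 59.5, 61.2 and 60.6 CPM in *Tarsl2*-/- mice. Wild-type mouse 584 fell within the knockout values. Its log2 fold change was 0.13 (standard error 0.08, 95% interval from -0.06 to 0.31, adjusted p = 0.444), and *Pik3r1* had the smallest spread between mice of one genotype among the 10 genes, an SD of 0.0745 on the log2 scale.

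*Akt2* (ENSMUSG00000004056, chr7:27591552-27640826, plus strand), the AKT kinase needed for insulin-stimulated glucose uptake, was at 209, 233 and 206 CPM in *Tarsl2*+/+ mice and at 245, 288 and 248 CPM in *Tarsl2*-/- mice. The groups did not overlap, and mouse 589 was the highest. The mean was 216 ± 14.6 CPM (SD, n = 3) against 260.3 ± 23.8 CPM (SD, n = 3). The log2 fold change of 0.27 (standard error 0.10, 95% interval from 0.06 to 0.48) did not pass the test after adjustment (adjusted p = 0.16). It was between 0.20 and 0.33 when each mouse was left out in turn.

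*Akt1* (ENSMUSG00000001729, chr12:112653821-112674884, minus strand), the widely expressed AKT kinase of growth and survival, was at 96.3, 112 and 101 CPM in *Tarsl2*+/+ mice and at 108, 121 and 119 CPM in *Tarsl2*-/- mice. Wild-type mouse 584 lay above knockout mouse 588, so that the groups overlapped. *Akt1* differed by 0.17 on the log2 scale (standard error 0.09, 95% interval from -0.03 to 0.37, adjusted p = 0.329).

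Per kb, *Akt2* was 1.247, 1.19 and 1.17 times as abundant as *Akt1* in the *Tarsl2*+/+ mice and 1.304, 1.37 and 1.19 times in the *Tarsl2*-/- mice. *Akt2* was the more abundant in all 6 mice. The difference in log2 ratio, 0.10, was within the overlap of the groups (exact two-sided permutation test, p = 0.3, adjusted p = 0.3 over 3 ratios).

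**Figure D3:**
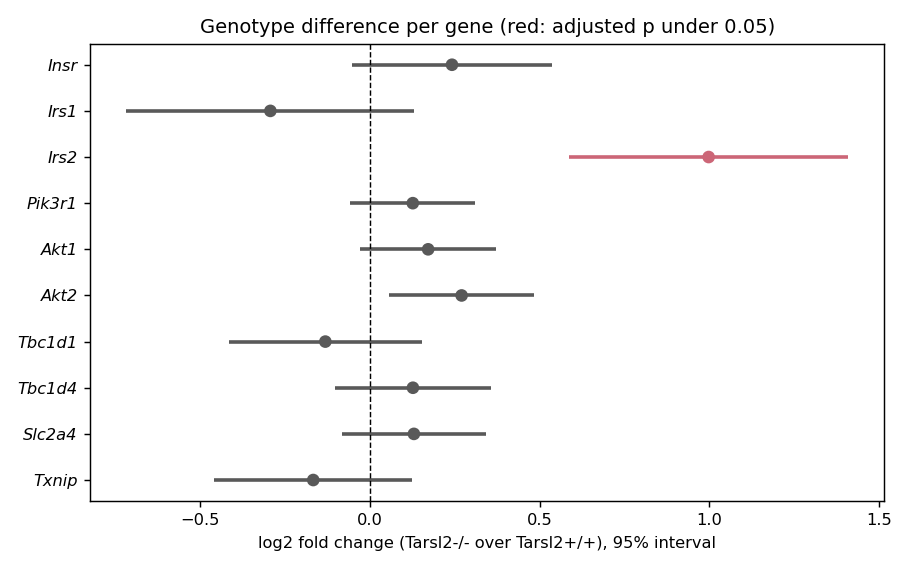
Log2 fold change of *Tarsl2*-/- over *Tarsl2*+/+ (horizontal axis) for the 10 genes, with points for the edgeR estimate, lines for its 95% interval, a dashed line at no difference and red for an adjusted p under 0.05. *Irs2* stands at 1.00, while the intervals of 8 of the 10 genes include 0.

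The Rab GTPase-activating proteins hold GLUT4 vesicles inside the cell until they are phosphorylated. *Tbc1d1* (ENSMUSG00000029174, chr5:64156305-64351486, plus strand), which also receives signals from AMP-activated kinase in contracting muscle, was at 31.6, 25.9 and 32.2 CPM in *Tarsl2*+/+ mice and at 28.9, 22.3 and 30.5 CPM in *Tarsl2*-/- mice. The groups overlapped and mouse 589 was the lowest. A log2 fold change of -0.13 was estimated (standard error 0.13, 95% interval from -0.42 to 0.15, adjusted p = 0.627), and without mouse 589 it was -0.0034.

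*Tbc1d4* (ENSMUSG00000033083, chr14:101442360-101609191, minus strand), the AKT substrate also called AS160, was at 18.8, 18.6 and 18.1 CPM in *Tarsl2*+/+ mice and at 22.9, 19.0 and 18.8 CPM in *Tarsl2*-/- mice. The groups were apart only by a margin far below the spread between mice, with 18.824 CPM in the highest wild-type and 18.836 CPM in the lowest knockout mouse, and knockout mouse 588 stood above the rest. The log2 fold change was 0.13 (standard error 0.11, 95% interval from -0.10 to 0.36, adjusted p = 0.55), and it was 0.03 without mouse 588.

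The ratio of *Tbc1d4* to *Tbc1d1* per kb was 0.574, 0.693 and 0.544 in *Tarsl2*+/+ mice and 0.763, 0.822 and 0.595 in *Tarsl2*-/- mice. *Tbc1d1* was the more abundant in all 6 mice, and the groups overlapped. The difference in log2 ratio was 0.26 (exact two-sided permutation test, p = 0.2, adjusted p = 0.3 over 3 ratios).

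*Slc2a4* (ENSMUSG00000018566, chr11:69942539-69948188, minus strand), which encodes GLUT4 itself, was at 137, 163 and 138 CPM in *Tarsl2*+/+ mice and at 154, 171 and 155 CPM in *Tarsl2*-/- mice. Wild-type mouse 584 lay above knockout mice 588 and 591. For *Slc2a4* the log2 fold change was 0.13 (standard error 0.10, 95% interval from -0.08 to 0.34, adjusted p = 0.503).

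*Txnip* (ENSMUSG00000038393, chr3:96557957-96561883, plus strand), the arrestin that binds thioredoxin and lowers glucose uptake, was the most abundant of the 10 RNAs, at 566, 533 and 484 CPM in *Tarsl2*+/+ mice and at 502, 371 and 536 CPM in *Tarsl2*-/- mice. Knockout mouse 589 was low, and the other 5 mice overlapped. The log2 fold change was -0.17 (standard error 0.13, 95% interval from -0.46 to 0.12, adjusted p = 0.534), and without mouse 589 it was -0.0181. An exon of *Gm15441* on the opposite strand overlaps *Txnip* by 606 bases and had at most 37 counts in any library, against at least 5957 for *Txnip*. Antisense genes overlap *Irs1* by 2822 of its 9144 exonic bases and *Irs2* by 162 of 6323, and they had 0 counts in every library. The strand setting of the counts is not given. Whether reads in these overlaps were counted for *Irs1* and *Irs2* was therefore not tested, which also limits their comparison per kb.

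Order of level was compared per kb of exonic length. In *Tarsl2*+/+ muscle it ran from *Txnip* at 169 CPM per kb through *Slc2a4* at 42.0, *Akt2* at 30.3, *Akt1* at 25.2, *Pik3r1* at 5.49, *Tbc1d1* at 4.04, *Tbc1d4* at 2.41, *Irs1* at 1.99 and *Insr* at 1.19 to *Irs2* at 0.858. Of these neighbours, *Tbc1d4* and *Irs1* alone had overlapping values across mice. In *Tarsl2*-/- muscle the first 7 kept this order, while *Irs2* at 1.71 CPM per kb came next, above *Irs1* at 1.63 and *Insr* at 1.41. Each of these last 3 overlapped its neighbour, so that *Irs2*, the lowest in wild-type muscle, was no longer separated from *Irs1*. The receptor and its adaptors had the 3 lowest mean levels in both genotypes, and *Txnip*, *Slc2a4* and the AKT kinases the highest.

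The 10 genes also differed in how much single mice set their values. Knockout mouse 589 was the highest of the 6 mice for 5 genes (*Insr*, *Pik3r1*, *Akt1*, *Akt2* and *Slc2a4*) and the lowest for 2 (*Tbc1d1* and *Txnip*). Wild-type mouse 595 was the lowest for 5 genes, and mouse 584 was neither the highest nor the lowest for any. The SD between mice of one genotype, on the log2 scale, ran from 0.0745 for *Pik3r1* to 0.339 for *Irs1*.

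Mouse 589 also had the highest summed adipocyte markers, 7432 CPM against 2805 to 4317 CPM in *Tarsl2*+/+ mice. The lowest knockout sum, 3313 CPM, lay within that wild-type range. Its summed slow-fibre markers were also the highest, 1764 CPM against 814 to 1459 CPM in *Tarsl2*+/+ mice. The lowest knockout sum of these, 1123 CPM, again lay within the wild-type range. Of the adipocyte list, 7 of 8 genes had a higher mean in *Tarsl2*-/- muscle, as had 8 of 8 slow-fibre genes. By edgeR 0 were called in either list (3 and 4 at an unadjusted p under 0.05, beside 19.5% of all tested genes). The genotypes overlapped for all 8 genes of each list, whereas 24.4% of all tested genes did not overlap. The smallest p of the adipocyte list was that of *Lep*, which was lower (log2 fold change -1.02, unadjusted p = 0.0084 by edgeR). Of the fast-fibre list, 6 of 8 tested genes were higher and 1 was called, *Myh1* (log2 fold change 0.59, adjusted p = 0.0162). Of the skeletal muscle list 6 of 8 were higher and 2 were called, *Myh1* and *Ckm* (log2 fold change 0.48, adjusted p = 0.046). Each list had 2 genes at an unadjusted p under 0.05 by edgeR. Of all tested genes, 2.23% were called, 0.873% as higher and 1.35% as lower. Summed leukocyte markers were 194 to 249 CPM in *Tarsl2*+/+ and 107 to 130.1 CPM in *Tarsl2*-/- mice, with 7 of 7 tested genes lower. Of these, 3 were called and 7 had an unadjusted p under 0.05, beside 19.5% of all tested genes. The 8 endothelial genes, at 173 to 199 CPM against 137 to 175 CPM in sum, were all lower. Of these, 1 was called and 2 had an unadjusted p under 0.05. Red cell markers summed to 4769 to 10438 CPM in *Tarsl2*+/+ and 4161 to 4543 CPM in *Tarsl2*-/- mice, the highest being mouse 595, in which *Irs2* was lowest. All 6 red cell genes were lower, with 0 called and 5 at an unadjusted p under 0.05. Without mouse 589 the log2 fold change of *Irs2* was 0.98 and without mouse 595 it was 0.83. Neither passed the test (adjusted p = 0.0672 and 0.0707 by edgeR). Marker sums also differed between the genotypes, which leaving out 1 mouse does not address. The part of these cell types in the results, that for *Irs2* included, was not tested.

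**Figure D4:**
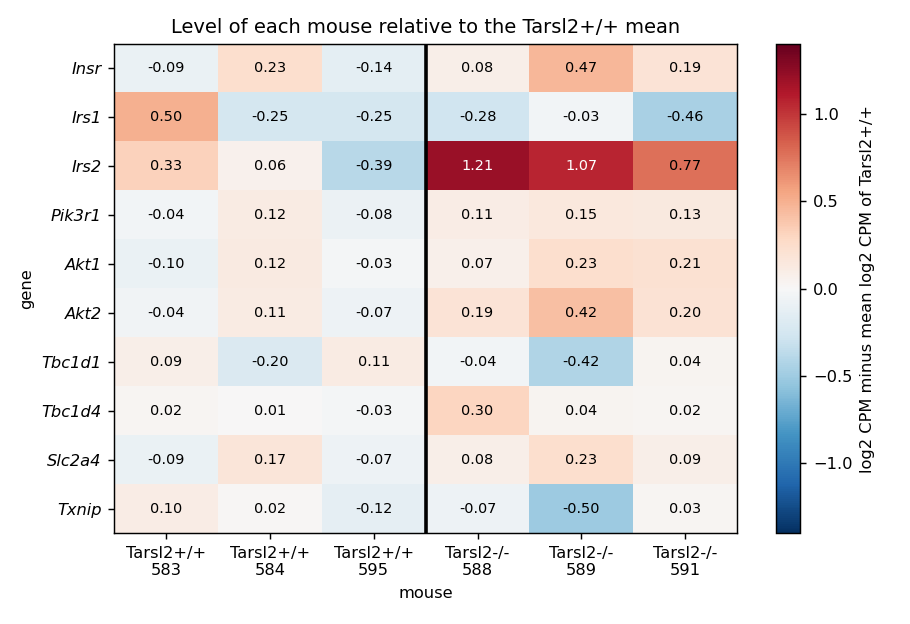
Log2 CPM of each gene (rows) in each mouse (columns) minus the mean log2 CPM of the 3 *Tarsl2*+/+ mice, printed in each cell, with red for higher and blue for lower values. *Irs2* is 0.77 to 1.21 above the wild-type mean in the 3 knockout mice, and *Txnip* is low in mouse 589 alone, at -0.50.

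Another 100 genes of the pathway were grouped by role, and all 100 were tested. At an adjusted p under 0.05, 2 were called higher in *Tarsl2*-/- muscle, *Arrdc2* and *Foxo4*, and 0 lower, beside 2.23% of all tested genes. At an unadjusted p under 0.05 there were 23, beside 19.5% of all tested genes. The median log2 fold change was 0.04, with 55 genes higher and 45 lower, and the genotypes did not overlap for 27 genes, beside 24.4% of all tested genes. Both of these counts were near the share of all tested genes. Of these 100 genes, most therefore showed no difference that passed the test.

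*Arrdc2*, an arrestin-domain gene of the same family as *Txnip* (chr8:70835129-70839720), was at 25.3, 24.5 and 24.8 CPM in *Tarsl2*+/+ mice and at 43.8, 51.2 and 50.8 CPM in *Tarsl2*-/- mice. The groups were far apart relative to their spread. The log2 fold change was 0.97 (standard error 0.09, adjusted p = 0.000506 by edgeR), and it was called without each mouse in turn. *Arrdc4*, the arrestin-domain gene closest to *Txnip* in its known regulation by glucose, was at 27.3, 23.5 and 21.0 CPM against 32.5, 33.0 and 29.8 CPM, with a log2 fold change of 0.41 that did not pass the edgeR test (adjusted p = 0.0751) and passed that of DESeq2. Of the 9 genes among *Txnip* partners and paralogs, 6 were higher and 3 lower. By edgeR 1 was called, and 3 had an unadjusted p under 0.05, beside 2.23% and 19.5% of all tested genes.

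*Foxo4*, a forkhead transcription factor that AKT keeps out of the nucleus (chrX:101254528-101260873), was at 47.0, 52.2 and 44.2 CPM in *Tarsl2*+/+ mice and at 65.8, 66.8 and 67.9 CPM in *Tarsl2*-/- mice. All knockout values lay above the wild-type values. The log2 fold change was 0.48 (standard error 0.09, adjusted p = 0.0183), and the call was lost without mouse 583, 595, 589 or 591. *Gsk3a*, the glycogen synthase kinase that AKT inhibits, was next in this list of 7 AKT targets, with a log2 fold change of 0.32 (adjusted p = 0.105). Of the 7, 6 were higher and 1 was called, beside 2.23% of all tested genes. An unadjusted p under 0.05 by edgeR was found for 4 of the 7, beside 19.5% of all tested genes.

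Of 14 genes of the mTOR branch, which couples AKT to protein synthesis, 11 were higher, 0 were called, and the median log2 fold change was 0.21. An unadjusted p under 0.05 was found for 5 of the 14 (19.5% of all tested genes). The genotypes did not overlap for 7 of the 14 (24.4% of all tested genes), among them *Eif4ebp1*, the translation repressor, with 106, 119.7 and 109.7 CPM against 135, 153 and 132 CPM, and *Rps6kb2*, an S6 kinase. Their log2 fold changes were 0.32 and 0.35 (adjusted p = 0.0929 and 0.0996), and DESeq2, run as an alternative, called *Eif4ebp1*. In the PI3K and AKT branch, 0 of 15 genes were called by edgeR, 1 had an unadjusted p under 0.05 (19.5% of all tested genes) and the median was 0.04. *Pik3r2*, another regulatory subunit of phosphoinositide 3-kinase, had a log2 fold change of 0.20 that did not pass the test (adjusted p = 0.297).

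Among 15 further receptor and adaptor genes, 0 were called by edgeR (3 at an unadjusted p under 0.05, beside 19.5% of all tested genes), with 7 higher and 8 lower. The receptor inhibitor *Enpp1* stood at -0.58 on the log2 scale (adjusted p = 0.0845).

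The longest list was that of GLUT4 traffic, with 24 genes, of which 0 were called (2 at an unadjusted p under 0.05, beside 19.5% of all tested genes), 10 were higher and 14 lower, and a median log2 fold change of -0.0062. *Aspscr1*, the tether that holds GLUT4 vesicles, and *Snap23*, a fusion protein of the surface membrane, had log2 fold changes of 0.30 and -0.30 (adjusted p = 0.13 and 0.17). Of 7 genes of glucose entry and phosphorylation, 0 were called (3 at an unadjusted p under 0.05, against the same 19.5%) and 3 were higher. *Hk2*, the main hexokinase of muscle, stood at a log2 fold change of 0.33 and the glucose transporter *Slc2a12* at 0.44 (adjusted p = 0.146 for both). Of 9 genes of the AMP-activated kinase, which drives glucose uptake apart from insulin, 0 were called (2 at an unadjusted p under 0.05, against the same 19.5%). Its regulatory subunit *Prkag2* stood at -0.41 on the log2 scale and its activator *Stk11* at 0.25 (adjusted p = 0.082 and 0.141).

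**Figure D5:**
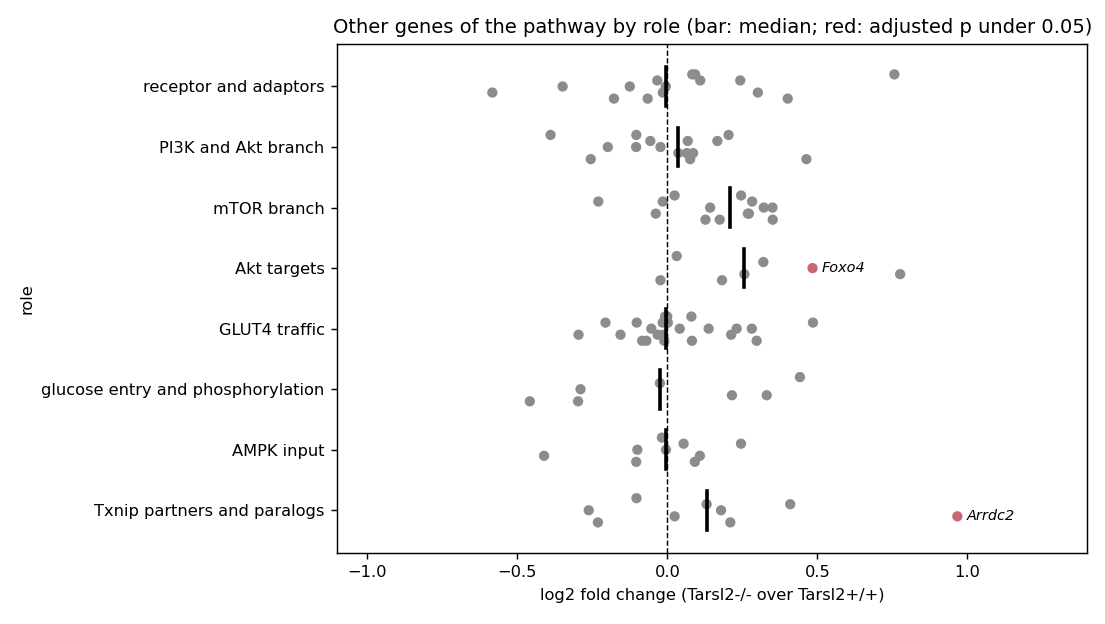
Log2 fold change of *Tarsl2*-/- over *Tarsl2*+/+ (horizontal axis) for 100 other genes of the pathway in 8 role lists (vertical axis), with 1 point per gene, black bars for the median of each list and red for an adjusted p under 0.05. *Arrdc2* at 0.97 and *Foxo4* at 0.48 are the called genes, and the medians run from -0.025 to 0.26.

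Among the genes whose levels followed *Irs2* most closely across the 6 mice were *Gm13772*, *Ddx3x*, *Mypn* and *Opa1*, with Pearson's r of log2 CPM between 0.985 and 0.997 among 12311 genes compared. With 6 libraries in 2 genotypes, such r values include the genotype difference itself. The log2 fold changes of these 4 genes were between 0.14 and 0.65, smaller than that of *Irs2*, and none passed the test (adjusted p between 0.122 and 0.372).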

How the data were processed

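Poly(A)-selected, stranded libraries were sequenced by the authors as paired ends, checked with FastQC and mapped with HISAT2 to mm10 per the study's methods. The submitters' processing notes list Bowtie 0.12.2 and mm8 instead. The table's gene coordinates and lengths equalled those of GENCODE vM21 (GRCm38) for the 10 genes. The authors deposited raw counts of reads per gene. The counting tool, annotation and strand setting are not given in the sources used here. Samples were grouped by the genotype in the labels.

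The 448 rows without a gene name, 0.114% to 0.128% of the counts, were left out. Genes were kept by filterByExpr (minimum count 10, minimum total 15) and tested with edgeR 4.0.16 in R 4.3.3 (TMM, glmQLFit, glmQLFTest, genotype as the only factor, Benjamini-Hochberg, threshold 0.05). The procedure was tested on simulated data. Library totals of 16176591 to 20123767 put 3 counts at 0.146 to 0.187 CPM. Log2 CPM used a prior count of 2. Permutation tests were exact and two-sided (scipy 1.17.1). The study's methods name DESeq2, which was run here (1.42.0) as an alternative beside limma-voom (limma 3.58.1), RLE and upper quartile scaling, other count filters and each library left out. RefSeq windows were matched by symbol. Windows for *Insr* and *Slc2a4* were not analysed here.

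The 10 genes, the 100 other pathway genes and the marker lists were chosen with earlier results of these data known. All 10 genes were named, and of the others those with an adjusted p under 0.05 and the 2 with the smallest p in each list. For likeness to *Irs2*, the rule took the 5 genes with the highest r. Some genes that these rules select are not reported here.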

Additional observations from a re-analysis of the deposited data

How the results depend on the processing

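No log2 fold change of the 10 genes and none of the 3 ratios changed sign under any alternative. *Irs2* was called under the 6 alternatives in tool, scaling and filter, with log2 fold changes of 0.98 to 1.01, and its adjusted p over all 12 alternatives ran from 8.39e-08 to 0.0713. With 1 library left out at a time, the number of the 10 genes called was 0 to 1, that of the 100 pathway genes 1 to 3, and that of all tested genes 74 to 607, with the lowest count without mouse 583. DESeq2 called 5 of the 100 pathway genes (among them *Arrdc2*, *Arrdc4*, *Eif4ebp1* and *Foxo4*, all higher in *Tarsl2*-/- muscle) and 655 of all genes, against 2 and 329 by edgeR. With every gene of at least 1 count in any library tested, 10 and 1389 were called. The cause of these differences was not tested. No paired analysis was run, because the sample labels used here give no litter or other pairing of *Tarsl2*+/+ with *Tarsl2*-/- mice. With 3 mice per genotype, an interval that includes 0 leaves room for the differences within it, and *Irs2*, with the fewest counts, is the least deeply measured of the 10 genes.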
